A study of Mus musculus with 5 samples.

Results

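The levels of 10 genes, 8 S100 calcium-binding proteins and 2 galectins, were measured by single-cell RNA sequencing in 5 libraries of cells sorted from mouse liver. The 10 genes, S100a4, S100a6, S100a8, S100a9, S100a10, S100a11, S100a13, S100a16, Lgals1 and Lgals3, were taken from a fixed list out of 31053 genes counted. They had been chosen with their levels in these libraries known, among them the difference between treated and control mice and the relation to Col1a1 and Timp1 among cells with Lrat, so those values are given as descriptions. Male Rosa26mTmG;Col1a1-Cre mice on a C57BL/6J background were used for every library. In these mice Cre recombinase under the Col1a1 collagen promoter switches on green fluorescent protein, which marks cells in which the promoter is or has been active. One set of mice received the liver carcinogen diethylnitrosamine (DEN) at 10 mg/kg at 2 weeks of age and a liquid Western alcohol diet (WAD) with 3.5% ethanol by volume for 5 months from 6 weeks of age. Control mice received saline and chow. Liver cells were freed with pronase and collagenase and sorted by green fluorescence (Col1a1+ or Col1a1-) and by the autofluorescence of stored vitamin A (VitA+ or VitA-), the hallmark of hepatic stellate cells (HSC). VitA+Col1a1+ and VitA-Col1a1+ cells were each sorted from both sets of mice, and the 4 libraries are called VitA+ DEN+WAD, VitA+ chow, VitA- DEN+WAD and VitA- chow. The label of the remaining DEN+WAD library is VitA-Col1a1-. How many mice gave cells to a library was not given in the sources used here.

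S100 proteins are small calcium-binding proteins with paired EF-hand loops. Most work as dimers that bind a partner protein once calcium is loaded, and several are released from cells and act on receptors. Galectins are lectins that bind β-galactoside sugars on glycoproteins, both inside cells and at their surface. In fibrotic liver, S100A6, S100A11 and galectin-1 are known from myofibroblasts, galectin-3 and S100A4 from macrophages and other leukocytes, and S100A8 with S100A9 from neutrophils and monocytes.

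The libraries held 259 to 10481 cells and 6145748 to 149936344 unique molecular identifiers (UMIs, each a tagged RNA molecule), with a median of 9105.5 to 24077 UMIs per cell. The UMIs of a gene were summed over the cells of a library and scaled to a total of 1000000 UMIs, which is given below as CPM. Intervals are 95% and cover counting error only. Since each group held 1 library, no replicate spread was available and no p-value was made. All 12 genes of a stellate marker list were detected in every library, with a summed level of 50770 CPM in VitA+ DEN+WAD, 46999 in VitA+ chow, 25934 in VitA- DEN+WAD, 12034 in VitA- chow and 11947 in the library labelled VitA-Col1a1-. That last library went against its label, since Col1a1 itself stood there at 1062 CPM, above the 304 and 958 of the 2 Col1a1+ DEN+WAD libraries. The leukocyte genes Ptprc, Adgre1 and Retnlg had exactly 0 UMIs in all 4 Col1a1+ libraries, against 9342, 8973 and 159 UMIs in the library labelled VitA-Col1a1-. Other leukocyte genes were not at 0, with 354 UMIs of Cd68, 1252 of Cd74 and 256 of Lyz2 in VitA+ DEN+WAD. The methods name a quality check of cells by a barcode rank graph. Whether leukocytes or single genes were filtered before deposit is not given in the sources used here. So low counts of leukocyte genes, S100a8 and S100a9 among them, describe the deposited cells. Pairs of libraries shared 0 to 21 cell barcodes.

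The 8 S100 genes lie on mouse chromosome 3 in 2 groups (coordinates of GRCm38 with the GENCODE M21 annotation). S100a13 (ENSMUSG00000042312, chr3:90514435-90524581), S100a16 (ENSMUSG00000074457, chr3:90537254-90543151), S100a4 (ENSMUSG00000001020, chr3:90603771-90606045), S100a6 (ENSMUSG00000001025, chr3:90612882-90624181) and S100a8 (ENSMUSG00000056054, chr3:90668978-90670035) follow each other on the plus strand, and S100a9 (ENSMUSG00000056071, chr3:90692632-90695721) ends the row on the minus strand. After 2825 kb with 60 protein-coding genes come S100a11 (ENSMUSG00000027907, chr3:93520488-93526287) and S100a10 (ENSMUSG00000041959, chr3:93555080-93564643), with 28.8 kb between them. Lgals1 (ENSMUSG00000068220) lies at chr15:78926725-78930465 and Lgals3 (ENSMUSG00000050335) at chr14:47367751-47386160, both on the plus strand. S100a4 and S100a6 are separated by 6.84 kb with 1 protein-coding gene between them. An exon of S100a4 overlaps a same-strand exon of Gm42674, a gene with 0 UMIs in all 5 libraries.

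Upstream sequences are shown for 4 of these genes, S100a4 and S100a6, which lie close together, S100a11, whose window held the most motif matches, and the leukocyte gene S100a8. Each is the 250 bases before the RefSeq start on GRCm38.p6, plus strand, 5′ to 3′, with motif matches in capitals.
S100a6 (chr3:90612644-90612893): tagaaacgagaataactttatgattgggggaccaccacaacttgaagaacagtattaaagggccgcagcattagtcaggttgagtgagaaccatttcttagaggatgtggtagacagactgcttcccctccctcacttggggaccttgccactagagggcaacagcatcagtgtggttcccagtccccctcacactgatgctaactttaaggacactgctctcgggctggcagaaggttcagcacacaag
S100a4 (chr3:90603520-90603769): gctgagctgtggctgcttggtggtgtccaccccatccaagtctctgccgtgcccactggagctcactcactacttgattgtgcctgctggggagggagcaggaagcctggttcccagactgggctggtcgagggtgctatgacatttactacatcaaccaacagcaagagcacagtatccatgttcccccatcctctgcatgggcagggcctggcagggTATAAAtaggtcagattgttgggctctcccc
S100a8 (chr3:90668821-90669070): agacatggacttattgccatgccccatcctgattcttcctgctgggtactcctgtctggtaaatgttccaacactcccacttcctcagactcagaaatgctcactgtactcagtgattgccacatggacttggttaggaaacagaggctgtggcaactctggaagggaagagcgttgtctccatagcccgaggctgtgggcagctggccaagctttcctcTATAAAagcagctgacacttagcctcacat
S100a11 (chr3:93520246-93520495): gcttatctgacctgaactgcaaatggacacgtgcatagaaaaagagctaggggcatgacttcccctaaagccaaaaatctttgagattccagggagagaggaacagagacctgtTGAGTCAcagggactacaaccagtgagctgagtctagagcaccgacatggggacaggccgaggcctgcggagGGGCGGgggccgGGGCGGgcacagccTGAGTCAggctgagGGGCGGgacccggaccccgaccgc
The motifs searched on both strands were TGANTCA (bound by AP-1), GGAATG (TEAD), GGGCGG (the GC box), TATAAA (the TATA box) and the NF-kB motif. The S100a6 window held none of them. The S100a4 and S100a8 windows each held TATAAA, 31 and 30 bases before the start, a motif present in 12.4% of 32851 RefSeq promoters of the same length. S100a11 had TGAGTCA at 136 and 38 bases before the start and GGGCGG at 64, 52 and 24 bases. TGANTCA occurred in 6.75% of all promoters and GGGCGG in 32.7%, against 12.6% for GGAATG and 1.41% for the NF-kB motif. The reference table held 8 of the 10 genes, without S100a10 and Lgals1. Of those not shown, S100a9, Lgals3 and the second S100a16 start held GGGCGG on either strand, that S100a16 start also held TGAATCA, and the windows of S100a13 and of the first S100a16 start held none.

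S100a6, whose calcium-binding product is also called calcyclin, varied most of the 7 genes found in all 4 Col1a1+ libraries. It was at 1669 CPM in VitA- chow, 798 (790 to 806) in VitA- DEN+WAD, 594 (590 to 599) in the library labelled VitA-Col1a1-, 53.5 (52.4 to 54.7) in VitA+ DEN+WAD and 0.976 (0.358 to 2.12, 6 UMIs) in VitA+ chow. No 2 of these intervals overlapped. Both VitA+ libraries lay below all 3 VitA- libraries. After each cell had been thinned to 2000 UMIs, S100a6 was found in 3.72% of VitA+ DEN+WAD cells (3.36 to 4.10), 0.392% of VitA+ chow cells (1 of 255), 33.2% and 74.2% of VitA- DEN+WAD and chow cells, and 30.6% of cells labelled VitA-Col1a1-. Without thinning the shares were 10.6%, 1.93%, 53.5%, 90.3% and 44.5% in the same order. Free RNA in a droplet also gives such UMIs. Endothelial-like cells, the class with the lowest S100a6 level in VitA- DEN+WAD, had a UMI of it in 13.4% of cells there at 11.9 CPM (median depth 13422 UMIs), and in 5.00% of cells in VitA+ DEN+WAD at 27.7 CPM (median depth 9465). The unthinned 10.6% of the whole VitA+ DEN+WAD library lay above that 5.00%, and the 1.93% of VitA+ chow below it. Endothelial-like levels did not follow the library totals, and background was not measured in VitA+ chow, so whether its 6 UMIs are free RNA was not tested.

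**Figure D1:**
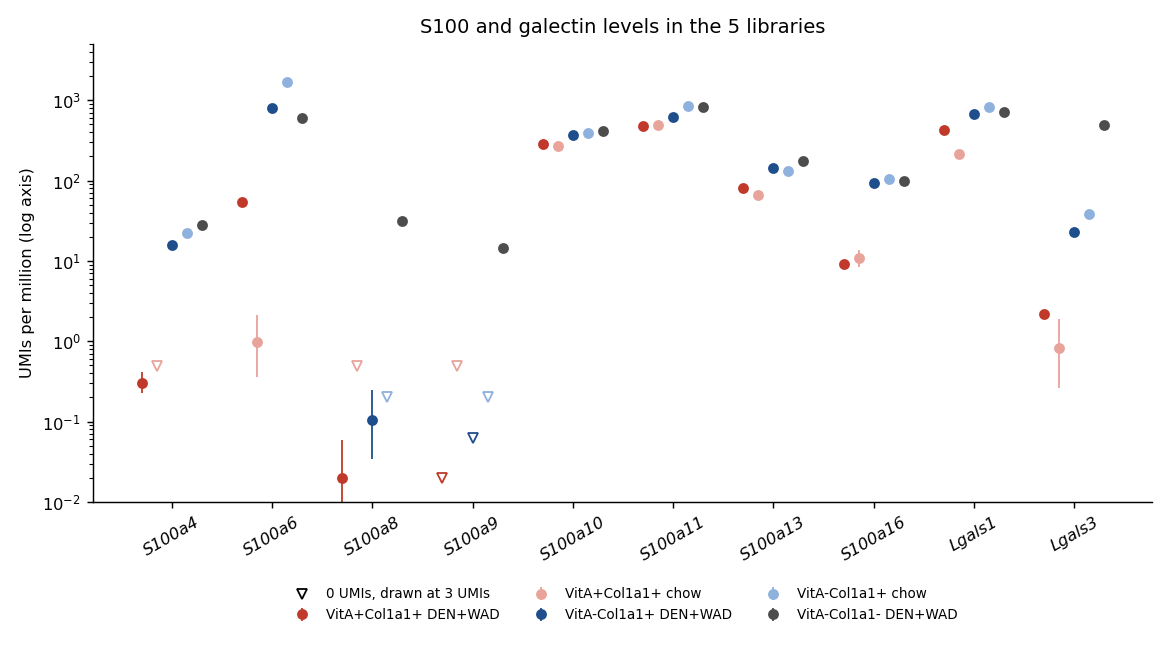
UMIs per total, scaled as CPM (log axis), of the 10 genes in the 5 libraries. Points are library totals with 95% Poisson intervals, and open triangles mark 0 UMIs drawn at the level of 3 UMIs. All genes but S100a8 and S100a9 are lowest in both VitA+ libraries. The gap is widest for S100a6, S100a4, S100a16 and Lgals3, while S100a10 and S100a11 spread less.

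S100a4, known as fibroblast-specific protein though leukocytes also make it, followed the same division by gate at a much lower count. Its levels were 0.307 CPM (0.225 to 0.409, 46 UMIs) in VitA+ DEN+WAD, 0 UMIs in VitA+ chow (3 UMIs would be 0.488), 15.6 (14.5 to 16.7) in VitA- DEN+WAD, 22.1 (19.8 to 24.6) in VitA- chow and 28.2 in the library labelled VitA-Col1a1-. S100a16 was at 9.18 and 10.7 (8.31 to 13.7) in VitA+ DEN+WAD and chow, which overlapped in counting error, and at 91.8, 104 and 99.6 in VitA- DEN+WAD, VitA- chow and the library labelled VitA-Col1a1-. Lgals3, encoding galectin-3, stood at 2.20 (1.97 to 2.45) and 0.814 (0.264 to 1.90, 5 UMIs) in VitA+ DEN+WAD and chow, at 23.0 and 38.3 in VitA- DEN+WAD and chow, and at 489 in the library labelled VitA-Col1a1-.

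The other genes spread less. S100a10, the partner of annexin A2, ranged from 269 (256 to 282) in VitA+ chow through 281 (279 to 284) in VitA+ DEN+WAD, 368 in VitA- DEN+WAD and 389 in VitA- chow to 414 CPM in the library labelled VitA-Col1a1-. S100a11 was at 483 and 496 (478 to 514) in VitA+ DEN+WAD and chow, at 622 in VitA- DEN+WAD, and at 838 and 832 in VitA- chow and the library labelled VitA-Col1a1-. S100a13, which takes part in the release of proteins that lack a signal peptide, was at 81.3 and 66.2 (59.9 to 73.0) in VitA+ DEN+WAD and chow, 144 and 130 in VitA- DEN+WAD and chow, and 175 in the library labelled VitA-Col1a1-. Lgals1, encoding galectin-1, was at 421 in VitA+ DEN+WAD, 216 (205 to 228) in VitA+ chow, 677 in VitA- DEN+WAD, 820 in VitA- chow and 707 in the library labelled VitA-Col1a1-.

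S100a8 and S100a9, the subunits of calprotectin, were close to absent from the Col1a1+ libraries. S100a8 had 3, 0, 5 and 0 UMIs in VitA+ DEN+WAD, VitA+ chow, VitA- DEN+WAD and VitA- chow, and 3344 UMIs (31.6 CPM) in the library labelled VitA-Col1a1-. S100a9 had 0 UMIs in each Col1a1+ library, where 3 UMIs would be 0.0200 CPM in VitA+ DEN+WAD, and 1533 UMIs (14.5 CPM) in the library labelled VitA-Col1a1-. Of 8 neutrophil genes, Retnlg, Mmp8, Ngp and Camp were at 0 in VitA+ DEN+WAD and the others had 45 UMIs in all. Summed over the list, the 4 Col1a1+ libraries had 0.300 to 4.401 CPM against 11.02 for the library labelled VitA-Col1a1-.

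DEN+WAD was then set against chow within the VitA+ gate. S100a6 was 54.8-fold higher (25.2 to 149), and 1 of the 8067 genes with a mean of at least 10 CPM had a larger ratio. The wide interval came from the 6 UMIs of the chow library. Lgals1 was 1.95-fold higher (1.84 to 2.06), and 67 genes had larger ratios. Lgals3 was 2.71-fold higher (1.15 to 8.39) from 5 chow UMIs, with a mean below 10. S100a13 was 1.23-fold higher (1.11 to 1.36). S100a10 differed by a ratio of 1.05 (0.995 to 1.10), S100a11 by 0.975 (0.940 to 1.01) and S100a16 by 0.855 (0.668 to 1.11), each interval including no difference. For S100a4, with 46 UMIs against 0, the interval reached down to 0.491 and no direction could be given. Of the 5 genes above the mean of 10, 1 was at least 2-fold higher, as were 0.744% of all genes tested, and 0 were at least 2-fold lower against 2.28%. That gene was S100a6, which passed the mean through DEN+WAD alone and was chosen for this difference, so nothing is read from the count. The same gate held Timp1, the tissue inhibitor of metalloproteinases, 53.9-fold higher (28.4 to 118). Acta2, the smooth muscle actin of myofibroblasts, was 10.4-fold higher (8.11 to 13.5) and Col1a1 3.06-fold (2.82 to 3.32). Lrat, the enzyme that stores vitamin A, was lower by a ratio of 0.775. Marker lists of other cells also differed in this gate. In DEN+WAD and chow, portal fibroblast genes summed to 397 and 213 CPM, smooth muscle genes to 1287 and 902, and endothelial genes to 301 and 627. Their part in these ratios was not tested.

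In the VitA- gate the same genes ran the other way or stayed close. S100a6 was lower in DEN+WAD, by a ratio of 0.478 (0.471 to 0.486). Lgals3 stood at 0.599 of chow (0.541 to 0.664), S100a4 at 0.706 (0.619 to 0.806), S100a11 at 0.742, Lgals1 at 0.825 (0.808 to 0.843), S100a16 at 0.881 and S100a10 at 0.945. S100a13 was 1.11-fold higher (1.06 to 1.17). Of the 8 genes measured, 0 were at least 2-fold higher against 3.84% of all 8617 genes, and 1 was at least 2-fold lower against 4.21%. The median log2 ratio was -0.35 for the 8 genes and -0.03 for all genes. Col1a1 at a ratio of 0.522 (0.515 to 0.530) and Acta2 at 0.488 were lower beside them, Timp1 was at 0.942 (0.874 to 1.02), and Lrat was 1.61-fold higher. Marker lists of other cells differed between the same libraries. The 10 endothelial genes summed to 2024 CPM in DEN+WAD and 683 in chow, the 10 portal fibroblast genes to 5809 and 11367, and the 8 smooth muscle genes to 2680 and 4985. Within Lrat-positive cells alone S100a13 was on the other side, at a log2 ratio of -0.10, so its direction depended on which cells were counted. With scaling by trimmed mean of M values (TMM), which moved every log2 ratio by 0.08 in this gate and 0.19 in the VitA+ gate, S100a6 was at a log2 ratio of -0.99 here. In the VitA+ gate S100a11 moved to the other side of 0 with that scaling, from -0.04 to 0.15, and Lgals1 passed 2-fold, at 1.15.

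**Figure D2:**
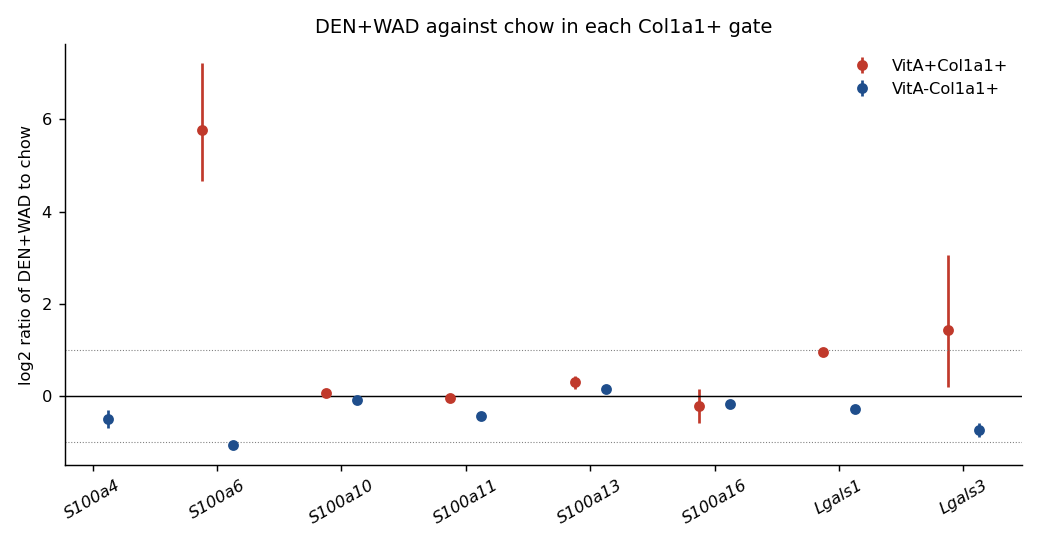
Log2 ratio of DEN+WAD to chow for 8 genes in the VitA+ gate (red) and the VitA- gate (blue), with 95% counting intervals; dotted lines mark a 2-fold difference. S100a6 is at 5.78 in the VitA+ gate and -1.06 in the VitA- gate, Lgals1 and Lgals3 also lie on opposite sides of 0, and S100a4 is drawn for the VitA- gate alone.

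The VitA- gate was next set against the VitA+ gate. In DEN+WAD, S100a4 was 50.8-fold higher in VitA- cells (37.7 to 70.0), S100a6 14.9-fold (14.6 to 15.3), Lgals3 10.4-fold (9.22 to 11.8) and S100a16 10.0-fold (9.41 to 10.6). S100a13, Lgals1, S100a10 and S100a11 were 1.77-, 1.61-, 1.31- and 1.29-fold higher. Among the 7 genes with a mean of at least 10 CPM, 3 were at least 2-fold higher against 7.09% of all genes, and 0 were at least 2-fold lower against 1.6%. S100a16 and Lgals3 passed that mean through the VitA- library alone, so nothing is read from the count. In chow, S100a6 was 1710-fold higher (785 to 4660), Lgals3 47.1-fold (20.1 to 146), S100a16 9.71-fold and Lgals1 3.79-fold. S100a4 was 45.2-fold higher with the VitA+ library set to the floor of 3 UMIs, and its exact interval began at 36.6. Here 5 of 8 genes were at least 2-fold higher, against 9.31% of all genes, and 0 were at least 2-fold lower, against 5.21%. S100a4, S100a6 and Lgals3 passed the mean through the VitA- library alone, so this count too is not a result about the genes. S100a13, S100a11 and S100a10 were 1.96-, 1.69- and 1.45-fold higher in VitA- chow cells. The sort itself separates cell types, and the part of other cell types in these differences was not tested.

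Cells with at least 1 Lrat UMI, taken as HSC by the study, made up 97.1% of VitA+ DEN+WAD (10175 cells), 94.6% of VitA+ chow (245), 70.4% of VitA- DEN+WAD (1920) and 72.5% of VitA- chow (484). In the library labelled VitA-Col1a1- they made up 49.6% (4891). Those with at least 5000 UMIs were thinned to 5000, which left out 131, 2, 37, 4 and 613 cells in that order. At this limit in VitA+ DEN+WAD, the 26 cells with 4000 to 5000 UMIs had 0 UMIs of S100a6, 310 CPM of Lgals1 and 413 of S100a11, and the 46 cells with 5000 to 6000 had 15.8, 221 and 382. Among the thinned cells S100a6 was found in 6.03% (5.58 to 6.52) of VitA+ DEN+WAD, 0.823% (0.0998 to 2.94) of VitA+ chow, 41.5% (39.3 to 43.8) of VitA- DEN+WAD, 88.3% (85.1 to 91.1) of VitA- chow, with 58.0% for the library labelled VitA-Col1a1-. It was scarce across VitA+ DEN+WAD cells but high in a few, with up to 40 UMIs of 5000 in 1 cell. Of VitA- DEN+WAD cells, the 10% with the most S100a6 held 70.8% of it, against 41.7% in VitA- chow. S100a11 was found in most cells everywhere, from 85.0% to 92.7%, S100a10 in 70.1% to 82.1% and Lgals1 in 57.6% to 89.0%. Lgals3 ranged from 0 of 243 cells in VitA+ chow and 0.697% in VitA+ DEN+WAD to 15.6% in the library labelled VitA-Col1a1-.

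S100a6 and Lgals1 tracked Col1a1 among these cells. In VitA+ DEN+WAD, S100a6 stood at 4.62 CPM in 6488 cells with 0 Col1a1 UMIs, 21.1 in 2492 cells with 1 or 2, and 230 in 1064 cells with 3 or more, a ratio of 49.7 (41.9 to 59.3) between the ends, and 1 other gene had a larger ratio. Lgals1 went from 242 through 360 to 974, a ratio of 4.03 (3.89 to 4.18). Lgals3 went from 0.647 (21 UMIs) to 7.71 (41 UMIs), a ratio of 11.9 (6.87 to 21.2). S100a16 stood at 4.07 and 15.2, a ratio of 3.74 (2.80 to 4.97). S100a11, S100a10 and S100a13 had ratios of 1.73, 1.52 and 1.36. S100a4 had 5 UMIs in the high cells and 0 in the cells without Col1a1. Of the 5 genes with at least 10 CPM, 4 were at least 1.5-fold higher in the Col1a1-high cells, against 4.22% of 7815 genes, and 0 were at least 1.5-fold lower, against 2.28%. S100a6 passed that level through the cells with Col1a1, and these counts are descriptions.

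The same order held in VitA- DEN+WAD for most genes. From 595 cells without Col1a1 through 520 to 768 cells with 3 or more UMIs, S100a6 stood at 62.5, 326 and 1239 CPM, a ratio of 19.8 (17.1 to 23.1). S100a4 had 2 and 107 UMIs at the ends, a ratio of 41.4 (11.2 to 347). Lgals3 had a ratio of 10.8 (5.73 to 23.1), Lgals1 of 3.84 (3.55 to 4.17), S100a11 of 2.13, S100a16 of 1.70 and S100a10 of 1.66, while S100a13 was at 1.14 (0.986 to 1.32). Thus 7 of 8 genes were at least 1.5-fold higher, against 9.34% of all genes, and 0 were at least 1.5-fold lower, against 7.97%. S100a4 and Lgals3 had that level through the cells with Col1a1 alone. In VitA- chow only 25 Lrat-positive cells lacked Col1a1, and S100a6 went from 600 to 1729 CPM in 405 cells with 3 or more UMIs, a ratio of 2.88 (2.29 to 3.67). There 4 of 8 genes were at least 1.5-fold higher against 23.4% of all genes, though Lgals3 is among them through the floor of 3 UMIs alone (73 UMIs against 0, exact bound 1.19), and 1, S100a13, was at least 1.5-fold lower, at 0.617, against 19.2%. In the library labelled VitA-Col1a1-, S100a6 (9.87-fold, 9.04 to 10.8), Lgals1 (4.17-fold), S100a11 (2.71-fold) and S100a10 (1.89-fold) were higher in Col1a1-high cells, 4 of 8 against 14.3%. S100a13 (0.658), S100a16 (0.307, 0.277 to 0.340) and Lgals3 (0.308, 0.278 to 0.342) were lower there, 3 of 8 against 15.9%. Of the 4278 Lrat-positive cells used in that library, 3096 had no UMI of Ptprc, Adgre1, Stab2, Cdh5, Epcam or Retnlg, genes of other cell types. By Spearman correlation over the 4278 cells, Tyrobp (0.269), Tmsb4x (0.258) and C1qa (0.248) were most like Lgals3. The part of other cell types in these ratios was not tested.

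**Figure D3:**
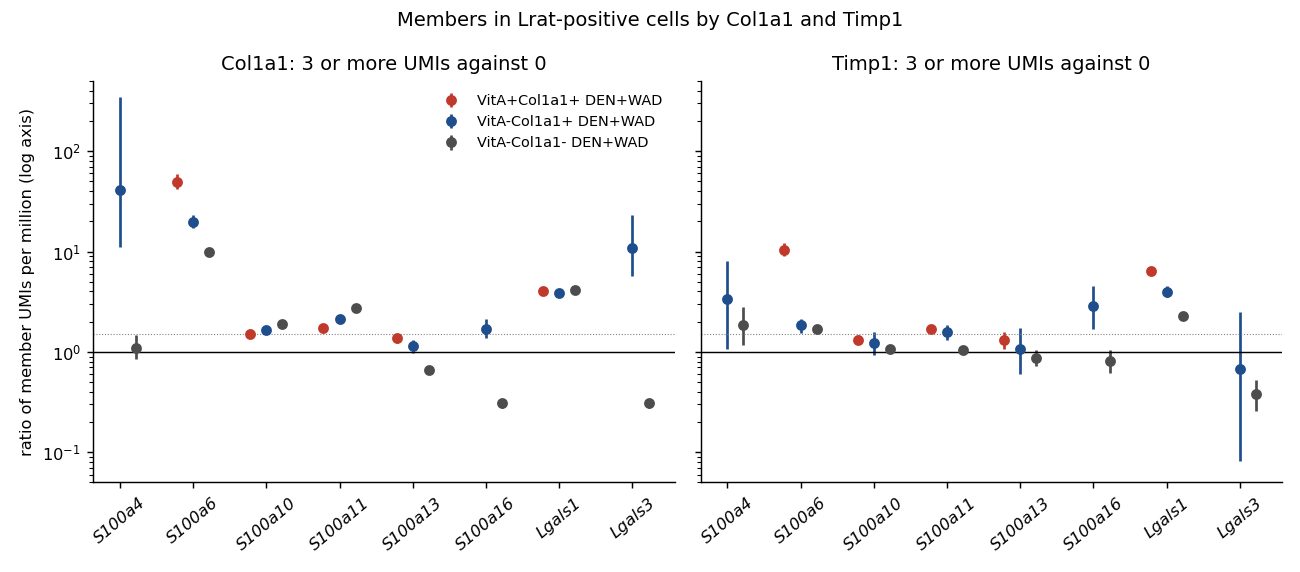
Ratio of CPM (log axis) between Lrat-positive cells with 3 or more UMIs and those with 0 UMIs of Col1a1 (left) or Timp1 (right), in the 3 DEN+WAD libraries, with 95% counting intervals; the dotted line marks 1.5. S100a6 and Lgals1 are above 1 in every library, and S100a16 and Lgals3 fall below 1 for Col1a1 in the library labelled VitA-Col1a1-. Part of the Lrat-positive cells of that library also had UMIs of marker genes of other cell types.

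Timp1 was used to sort the same cells. In VitA+ DEN+WAD, Lgals1 went from 281 CPM in 8961 cells without Timp1 through 665 in 855 cells to 1800.0 in 228 cells with 3 or more UMIs, a ratio of 6.40 (6.101 to 6.702), above its 4.03 for Col1a1. S100a6 went from 20.8 through 106 to 218, a ratio of 10.4 (9.045 to 12.03), below its 49.7 for Col1a1. S100a16 (5.75, 3.78 to 8.46, 30 UMIs in the high cells) and Lgals3 (8.73, 4.52 to 15.8, 14 UMIs) were also higher, and S100a11, S100a10 and S100a13 had ratios of 1.70, 1.33 and 1.31. At 10 CPM 3 of 5 genes were at least 1.5-fold higher, against 9.75% of all genes, and 0 were lower by that much, against 10.6%. Only 29 cells of VitA- DEN+WAD had 3 or more Timp1 UMIs, with Lgals1 at a ratio of 3.996 (3.544 to 4.492) and S100a6 at 1.84 (1.56 to 2.15), and 5 of 8 genes passed 1.5-fold against 16.8% of all genes, with 0 lower against 23.5%. In the library labelled VitA-Col1a1- the ratios were 2.25 for Lgals1, 1.70 for S100a6 and 0.378 (0.261 to 0.530) for Lgals3, with 3 of 8 genes at least 1.5-fold higher against 7.03% and 1 lower against 16.5%. As for Col1a1, the part of other cell types among the Lrat-positive cells of that library was not tested.

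The treatment difference was read again among the thinned Lrat-positive cells, all of them and then those with the same Col1a1 count. In the VitA+ gate S100a6 was at 32.6 CPM in all 10044 DEN+WAD cells against 1.65, from 2 UMIs, in 243 chow cells, a ratio of 19.8 (5.47 to 164). Cells with 0 Col1a1 UMIs had 150 UMIs of S100a6 in 6488 DEN+WAD cells (4.62 CPM) and 0 in 171 chow cells. The ratio was 1.32 with the chow cells set to the floor of 3 UMIs, and the exact interval began at 1.06. That DEN+WAD level lay below the one of endothelial-like cells in the same library given above, and the part of free RNA was not tested. Cells with 1 or 2 Col1a1 UMIs had 21.1 CPM in DEN+WAD against 3.28, from 1 UMI, in 61 chow cells, a ratio of 6.44 (1.15 to 255). Lgals1 was 1.57-fold higher (1.39 to 1.78) over all these cells, 1.23-fold (1.06 to 1.44) in those with 0 Col1a1 UMIs and 1.55-fold (1.22 to 1.98) in those with 1 or 2. S100a11 was at 0.874 (0.791 to 0.968) in cells with 0 Col1a1 UMIs.

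For the VitA- gate the ratio of S100a6 over all Lrat-positive cells was 0.382 (0.366 to 0.398), from 615 CPM in 1883 DEN+WAD cells and 1612 in 480 chow cells. It was 0.717 (0.686 to 0.749) among cells with 3 or more Col1a1 UMIs (768 and 405 cells), 0.280 (0.245 to 0.321) with 1 or 2 (520 and 50 cells) and 0.104 (0.0793 to 0.138) with 0 (595 and 25 cells), so S100a6 was lower in DEN+WAD in all 3 sets. Lgals1 was lower over all cells, at 0.742 (0.704 to 0.782), and at 0.659 (0.489 to 0.908) and 0.670 (0.568 to 0.793) in cells with 0 and with 1 or 2 Col1a1 UMIs, but at 1.14 (1.07 to 1.20) in cells with 3 or more. S100a10 stood at 0.748 (0.554 to 1.03), 0.875 (0.708 to 1.09) and 1.14 (1.05 to 1.24) in the same 3 sets. Lgals3 was at 0.234 (0.128 to 0.449) with 1 or 2 Col1a1 UMIs and at 1.01 (0.757 to 1.36) with 3 or more. S100a4 in that last set, at 1.13 (0.799 to 1.61), could not be told from no difference.

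Among the genes themselves, S100a6, S100a11 and Lgals1 went together most. Over thinned Lrat-positive cells of VitA- DEN+WAD the Spearman correlation of S100a6 was 0.48 with Lgals1, 0.36 with S100a11 and 0.35 with Lgals3, and the median over 28 pairs was 0.183. In VitA- chow it was 0.49 with Lgals1, 0.50 with S100a11 and 0.39 with Lgals3. For VitA+ DEN+WAD the median over 21 pairs was 0.057, and the largest were 0.20, for S100a11 with Lgals1 and for S100a6 with Lgals1. These are over cells of 1 library, which share its depth and its free RNA, and they grow with the counts available. Among 5465 genes found in at least 10% of the cells of VitA+ DEN+WAD, the 5 most like S100a6 were Col1a1 (0.308), Vim (0.268), Col3a1 (0.259), Col1a2 (0.255) and Mmp23 (0.245), against a 99th percentile of 0.133. For Lgals1 they were Vim (0.285), Col1a1 (0.283), Col3a1 (0.273), Timp1 (0.233) and Tmsb10 (0.211). Lgals3 and S100a4 were too sparse there, with 89 and 6 UMIs, for a likeness to be read. For VitA- DEN+WAD the order for S100a6 was Col1a1 (0.564), Fmo2 (0.556), Vim (0.548), Ebf1 (0.537) and Lmod1 (0.528), and in VitA- chow Acta2 (0.627), Myl6 (0.522), Crip1 (0.515), Myh11 (0.513) and Nov (0.505). Acta2 and Myh11, genes of contractile cells, were in the chow list, and Col1a1 was not. Myl6 in that list was found in 98.1% of the chow cells. The VitA- DEN+WAD list also held a smooth muscle marker, Lmod1.

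Each library was also clustered by itself with the 10 genes, Col1a1, Timp1 and Lrat left out. Clusters are called by a cell class with the ending -like from marker lists, or by their leading genes where no class could be given. In VitA+ DEN+WAD a cluster of 472 cells (4.50% of cells) led by Mgp, Mfap4, Dpt and Gas6 held 57.9% of the S100a6 UMIs at 512 CPM, and 91.3% of the 46 S100a4 UMIs. All 12 stellate markers were found in it, and portal fibroblast and mesothelial markers were among its leading genes, so it was left without a class. A cluster of 66 cells led by Acta2, Lmcd1, Notch3 and Lmod1 had the highest S100a6 level, 603 CPM. Another, of 780 cells led by Acta2, Tgfb2, Tmem119 and Myl9, stood at 84.3 and held 15.2% of S100a6 UMIs. A cluster of 453 cells led by Cxcl10 and Cxcl9 was at 76.5 for S100a6 and 1168 for Lgals1. The 29 cells led by Top2a, a gene of dividing cells, had Lgals1 at 2624 and S100a10 at 717. Of the other clusters, 6 with 549 to 1563 cells, 4 of them stellate-like, lay at 2.11 to 3.41 CPM of S100a6, below the 27.7 of endothelial-like cells in the same library. In the class as a whole, the 6812 stellate-like cells had S100a6 at 13.3 (12.6 to 14.1) and held 16.4% of its UMIs. In VitA+ chow the 149 stellate-like cells had 0 UMIs of S100a6, and all 6 UMIs lay in the 110 cells without a class.

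Among VitA- DEN+WAD cells, 219 led by Ephx3, Acta2, Aspn and Vtn carried the largest part of 3 genes. They held 37.5% of S100a6 (3105 CPM), 64.4% of Lgals3 (154) and 51.3% of S100a4 (83.1), with S100a11 at 1642, Lgals1 at 1635 and S100a10 at 704. A cluster of 68 cells led by Sfrp2, Wisp2 and Pcolce2 had the highest S100a6 level, 3908, and S100a4 at 154. Another, 421 cells led by Dpep1 and C7, stood at 1104 and held 25.8% of S100a6. The 46 portal fibroblast-like cells were at 2253, while 445 cells led by Hhip and Fcna were at 31.7 and 263 led by Gcgr and Rgs4 at 15.7. In VitA- chow the highest S100a6 levels were 4903 in 52 cells led by Slc11a1 and Igfbp5, which held 51.1% of S100a4, and 4178 in 64 cells led by Ephx3 and Rgs4, which held 43.5% of Lgals3. There S100a6 was high in each mesenchymal class as a whole, at 1509 in 203 stellate-like cells, 1224 in 162 portal fibroblast-like cells and 2266 in 153 smooth muscle-like cells, against 25.2 in 36 endothelial-like cells. The value of the stellate-like class rested mostly on the 64 cells led by Ephx3, with 5188 of its 6733 S100a6 UMIs. Its other clusters were 112 cells led by Clca3a1 and Ptges at 559 and 27 cells led by Fcna, Colec10, Tmem56 and Hhip at 36.8, the last near the 31.7 of the cells led by Hhip and Fcna in VitA- DEN+WAD. Stellate-like cells of VitA- DEN+WAD (1615) stood at 445, and 9815 of their 12821 S100a6 UMIs came from the 421 cells led by Dpep1 and C7. Those cells had 9 of 12 stellate and 7 of 10 portal fibroblast markers, and a cluster led by Sfrp1, Dpep1 and C7 in the library labelled VitA-Col1a1- was named portal fibroblast-like, so the class name is not firm. The clusters given that class differ between the 2 libraries, since cells led by Ephx3 were stellate-like in chow and had no class in DEN+WAD.

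Across clusters of at least 50 cells, the genes of the VitA+ and VitA- DEN+WAD libraries divided into those that varied over a wide range and those found everywhere. In VitA+ DEN+WAD (14 clusters) the highest S100a6 level was 286-fold above the lowest, against 10.98-fold for Lgals1, 8.73-fold for S100a11 and 8.07-fold for S100a10. In VitA- DEN+WAD (10 clusters) the range was 336-fold for S100a6, 215-fold for Lgals3 and 3.06-fold for S100a10. For S100a4 it was 1084-fold, but from a lowest level of 0.142 CPM, under the floor of 3 UMIs in that cluster, so its size is not read. As a description over those 10 clusters of 1 library, the Spearman correlation of S100a6 was 0.89 with Col1a1 and 0.89 with Acta2. Over the 7 clusters of VitA- chow it was 0.04 with Col1a1 and 0.93 with Acta2, and Lgals1, S100a11 and Lgals3 had -0.07, -0.25 and -0.18 with Col1a1 and 0.86, 0.82 and 0.89 with Acta2. The limit of 50 cells left out of VitA- chow, among others, 36 endothelial-like cells and 27 stellate-like cells led by Fcna, both low in S100a6. The 10 clusters of VitA- DEN+WAD kept 409 endothelial-like cells and the stellate-like clusters low in S100a6. So the clusters of these 2 libraries hold unlike cells.

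**Figure D4:**
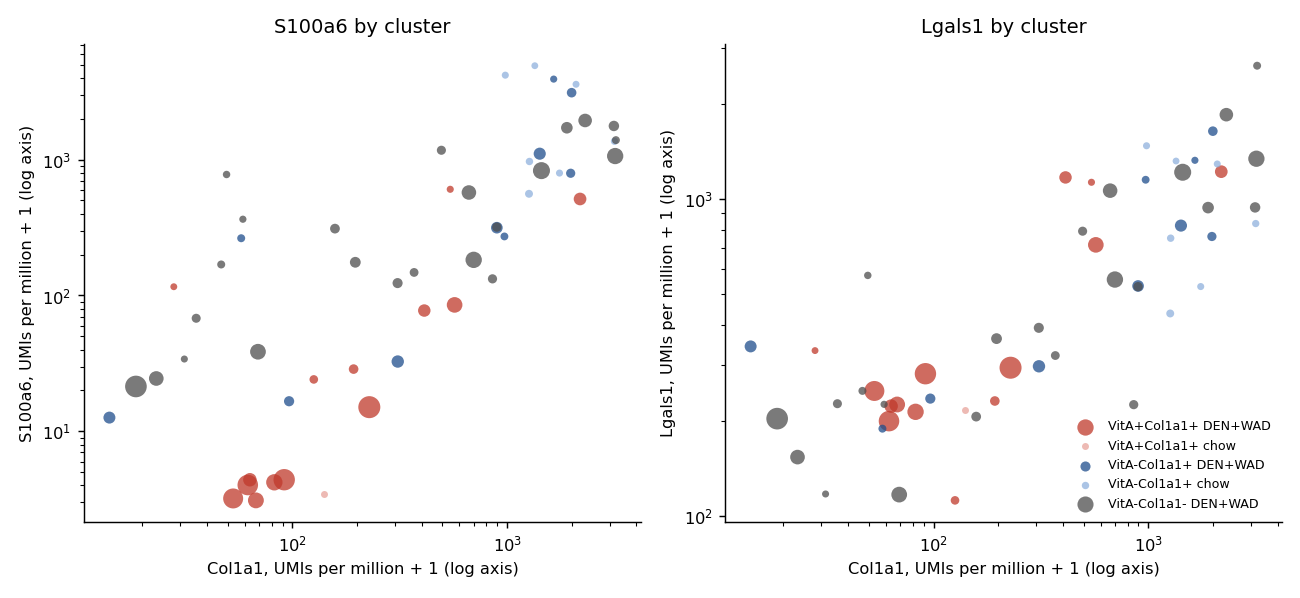
S100a6 (left) and Lgals1 (right) against Col1a1 for clusters of the 5 libraries, in CPM plus 1 on log axes; each point is 1 cluster, its colour the library and its area the number of cells. Clusters of at least 50 cells are drawn, and the 7 of VitA- chow all have S100a6 at 559 or more. Smaller VitA- chow clusters are not drawn, and 27 stellate-like cells led by Fcna and 36 endothelial-like cells among them lay far lower.

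The study divides Lrat-positive cells further by Thy1 and Fbln2, markers of portal fibroblasts. Of VitA+ DEN+WAD cells, the 98 with the Lrat+Thy1-Fbln2+ pattern had S100a6 at 910 CPM (873 to 949), S100a4 at 14.9 and Lgals1 at 1807, against 36.5, 0.0552 and 393 in 10044 Lrat+Thy1-Fbln2- cells. Among VitA- DEN+WAD cells, the 117 Lrat+Thy1+Fbln2- cells had S100a6 at 2857 and Lgals3 at 109, the 117 Lrat+Thy1-Fbln2+ cells had S100a6 at 1129, and 1662 cells with neither marker stood at 461. In VitA- chow these 3 sets were closer, at 2307, 1299.8 and 1430.25. Cells with more UMIs are more likely to be counted positive for a marker, and the part of depth in these differences was not tested.

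S100a16 and S100a13 lay elsewhere than the others. The 220 endothelial-like cells of VitA+ DEN+WAD held 47.1% of S100a16 UMIs, at 246 CPM, with S100a13 at 321 there against 72.7 in stellate-like cells. The 418 endothelial-like cells of VitA- DEN+WAD held 39.8% of S100a16 (305) and had S100a13 at 405 against 90.8 in stellate-like cells. The 36 endothelial-like cells of VitA- chow stood at 274 and 365, and the 2454 of the library labelled VitA-Col1a1- at 343 and 370, holding 63.3% of its S100a16. The endothelial marker list summed to 301, 627, 2024, 683 and 2341 CPM in VitA+ DEN+WAD, VitA+ chow, VitA- DEN+WAD, VitA- chow and the library labelled VitA-Col1a1-. Its part in the level of S100a16 and S100a13 per library was not tested.

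In the library labelled VitA-Col1a1-, where leukocytes were present, the genes separated by cell class. Lgals3 was at 2412 CPM in 1108 macrophage-like cells, which held 87.5% of it and of which 93.1% had a UMI, and at 773 in 84 dendritic-like cells, against 35.0 in stellate-like and 24.0 in endothelial-like cells. S100a4 was highest in 185 T or NK-like cells (831) and the dendritic-like cells (828), and these classes held 29.5% and 21.3% of it. S100a9 lay almost wholly (96.8%) in 29 neutrophil-like cells, at 17827. S100a8 was at 10427 in the same 29 cells, yet 70.1% of its UMIs came from macrophage-like cells, at 125. There S100a8 had 2343 UMIs and S100a9 had 14, while neutrophil-like cells had 868 and 1484, so the 2 genes did not keep 1 ratio between the classes. Of 791 macrophage-like cells led by Mmp12, Clec4f, Vsig4 and Cd5l, 44.5% had a UMI of S100a8. Stellate-like and endothelial-like cells had S100a8 at 1.72 and 1.49.

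S100a6 in that library was at 2871 in neutrophil-like cells, 1938 in 559 smooth muscle-like cells, 1766 in 282 portal fibroblast-like cells, 1170.1 in T or NK-like cells and 743 in 3328 stellate-like cells, against 39.2 in macrophage-like and 25.4 in endothelial-like cells. S100a11 followed with 2739 in neutrophil-like, 2226 in smooth muscle-like, 1347 in stellate-like and 1249 in cholangiocyte-like cells, and 72.6 in macrophage-like cells. Lgals1 was at 1843 in smooth muscle-like, 1089.8 in stellate-like and 939 in portal fibroblast-like cells, and 123 in macrophage-like cells. S100a10 was at 1216 in T or NK-like and 893 in smooth muscle-like cells. So galectin-1 and galectin-3 transcripts lay in different classes. In the 4 Col1a1+ libraries, the 10 macrophage genes summed to 2.28 to 3.33 CPM, against 5113 in the library labelled VitA-Col1a1-.

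**Figure D5:**
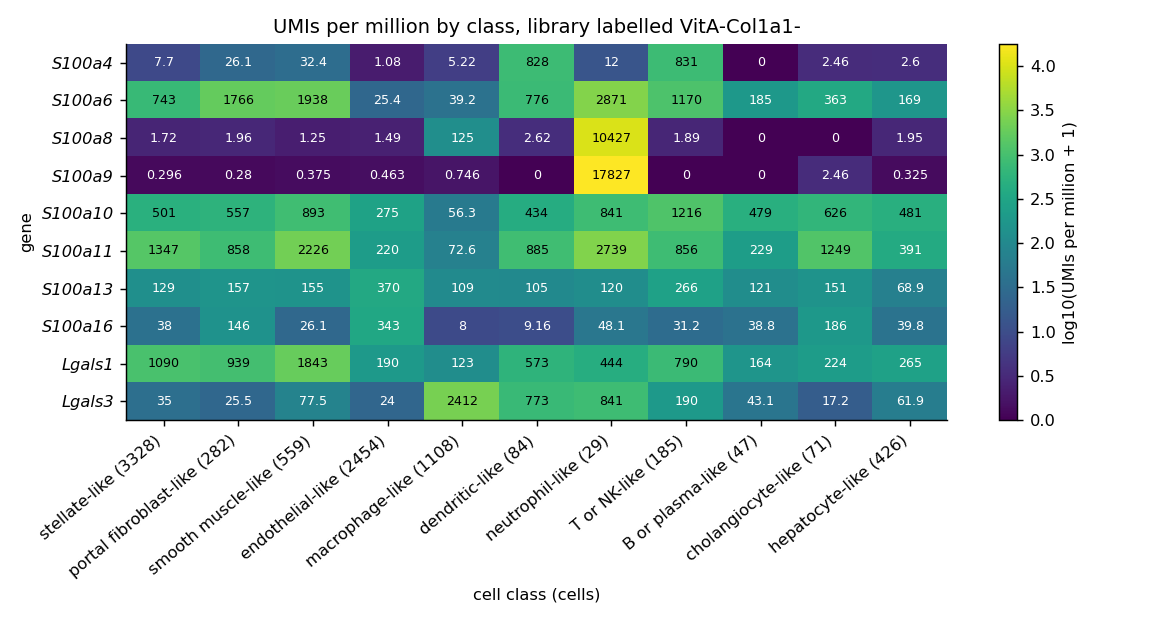
CPM of the 10 genes in 11 cell classes of the library labelled VitA-Col1a1-, printed in each cell and coloured by log10 of the value plus 1; the number of cells stands beside each class. Lgals3 is highest in macrophage-like cells (2412), S100a9 in neutrophil-like cells (17827) and S100a16 in endothelial-like cells (343).

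Partners and receptors of these proteins were taken from 4 fixed lists. Of other S100 genes, S100a1 alone had a mean of at least 10 CPM over DEN+WAD and chow in a gate, at 46.7 and 33.4 in VitA+ DEN+WAD and chow (1.40-fold, 1.22 to 1.62) and 113 and 135 in the VitA- gate (0.839). Of 4 other galectin genes measured in the VitA+ gate, 0 were 2-fold different between DEN+WAD and chow. Of all genes, 0.744% were at least 2-fold higher and 2.28% lower, so 0 of 4 is close to that share. The median log2 ratio was 0.04, against -0.06 for all genes. Lgals3bp, whose product binds galectin-3, was at 765 and 636 CPM (1.20-fold) in the VitA+ gate and at 408 and 226 (1.81-fold, 1.74 to 1.87) in the VitA- gate, so it was higher in DEN+WAD in both gates. Lgals9 was 1.51-fold higher and Lgalsl at 0.625 in the VitA- gate.

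Of the annexins and S100 binding partners, 1 of 11 measured was at least 2-fold higher in the VitA+ gate, against 0.744% of all genes, and 0 were lower, against 2.28%. That was Plat, tissue plasminogen activator, at 46.7 against 13.3 CPM (3.50-fold, 2.82 to 4.41). In the VitA- gate Plat was lower in DEN+WAD, at 82.5 against 101. Anxa2, the partner of S100a10, was at 591 and 466 in the VitA+ gate (1.27-fold, 1.22 to 1.32) and at 464 and 346 in the VitA- gate (1.34-fold, 1.30 to 1.38), while S100a10 differed little in either. Ahnak, a large scaffold that binds the S100A10-annexin A2 complex, was at 397 against 897 in the VitA- gate, a ratio of 0.443 (0.433 to 0.452), and Il1a, an alarmin released with S100A13, at 50.8 against 15.2, 3.34-fold higher (2.92 to 3.84). These were the 1 lower and 1 higher of 12 partners there, against 4.21% and 3.84% of all genes. Of 6 receptors measured, Cd44, which binds hyaluronan, was 3.48-fold higher in DEN+WAD in the VitA+ gate (26.6 against 7.65, 2.61 to 4.75) and Cd36, a scavenger receptor also of endothelial cells, 3.30-fold higher in the VitA- gate (145 against 44.0, 3.05 to 3.58). They were the 1 receptor at least 2-fold higher in each gate, against 0.744% and 3.84% of all genes. Cd44 passed the mean of 10 CPM through VitA+ DEN+WAD alone, and the lists were chosen with earlier results known. So nothing is read from these receptor counts. In the other gate both genes were lower in DEN+WAD, Cd44 at 43.0 against 56.2 and Cd36 at 15.2 against 23.1. The endothelial list was higher in the same VitA- DEN+WAD library, 2024 against 683, and its part in Cd36 and Il1a was not tested. Tlr4 was at 10.5 against 16.3 (0.645) and Bsg at 489 against 397 (1.23-fold) in the VitA+ gate.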

How the data were processed

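Per the labels and the methods, 5 droplet libraries (10x Genomics, 3' kit, named as v3.1 in one label field and v2 in another) were made from sorted liver cells, 1 library per group. The authors aligned reads to mm10 and counted UMIs with Cell Ranger 3.1.0, whereas 6.1.2 stands in the file header of the VitA-Col1a1- library. The values deposited were raw counts of UMIs per gene and cell barcode, with no normalization, and all deposited barcodes were kept as cells (lowest total 500 UMIs). Of 31053 identifiers, 30934 were found in GENCODE M21 (GRCm38).

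The 10 genes and the lists of partners, receptors and cell markers were chosen with earlier results of these data known. Counts were summed over cells and scaled to a total of 1000000 (CPM), with exact Poisson intervals for levels, conditional binomial intervals for ratios and Clopper-Pearson intervals for shares, at 95%. A library at 0 was given a floor of 3 UMIs. UMIs are tags of the 3' end, 1 per molecule, so no value was divided by gene length and levels of different genes are not ranked. Ratios over all genes used those with a mean of at least 10 CPM. Cells were thinned to 2000 UMIs for shares and to 5000 for Lrat-positive cells (seed 7). Named besides the 10 genes are, per list, up to 4 genes with the largest ratio of DEN+WAD to chow, Anxa2, the context genes Col1a1, Timp1, Acta2 and Lrat, and the 5 genes most like S100a6, S100a4, Lgals1 and Lgals3. Clusters came from scanpy 1.11.5 and igraph 0.11.9 (2000 variable genes, 30 components, 15 neighbours, Leiden resolution 1), and were named where at least 3 genes of a marker list were each found in at least 25% of cells. No doublet caller was run. Other tools were Python 3.11.15, numpy 2.4.6, scipy 1.17.1, pandas 2.3.3, and edgeR 4.0.16 in R 4.3.3 for TMM factors alone. Calculations were tested on simulated counts. Alternatives covered scaling, filters on low genes, subsets of cells, thinning, Lrat and marker limits and clustering resolution.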

Additional observations from a re-analysis of the deposited data

Results flagged for a closer look

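The ratio of DEN+WAD to chow lay on opposite sides of 1 in the VitA+Col1a1+ and VitA-Col1a1+ gates for 4 of the genes, and for 3 of them both counting intervals left out 1. The share of all genes on opposite sides is not given here, so nothing is read from these counts. The log2 ratio in the VitA+ gate minus that in the VitA- gate was 6.84 for S100a6, 2.18 for Lgals3 and 1.24 for Lgals1. S100a10 was the other, at 1.05 (0.995 to 1.10) and 0.945. Each rested on 1 library per group, with 6 chow UMIs of S100a6 and 5 chow UMIs of Lgals3 in the VitA+ gate, so the difference between the gates was not tested.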

How the results depend on the processing

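No paired analysis was possible because each group held 1 library, and for the same reason no library could be left out. In the VitA+ gate, 1 gene (S100a6) reached a 2-fold ratio of DEN+WAD to chow. The count was 2 with TMM, 2 with median-of-ratios factors, 2 with a mean of at least 1 CPM and 2 with no filter. It was 0 in stellate-like clusters and 0 in Lrat-positive cells with 0 Col1a1 UMIs, settings chosen after seeing the data, in which S100a6 fell under the 10 CPM needed. Over all genes there, 0.744% were higher and 2.28% lower, and with TMM 1.41% and 1.58%. The number of genes at least 2-fold higher was 60, against 116 with TMM, 92 with median-of-ratios factors, 136 in Lrat-positive cells with 0 Col1a1 UMIs, 303 at 1 CPM and 609 with no filter. In the VitA- gate it was 331, against 204 in mesenchymal-like clusters, 211 without cells bearing other-type markers, 219 in stellate-like clusters, 210 in Lrat-positive cells with 3 or more Col1a1 UMIs, 758 at 1 CPM and 1534 with no filter, and between gates in DEN+WAD 590 against 390 in Lrat-positive cells. The cause of these shifts was not tested.

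S100a6 was no longer at least 2-fold lower in the VitA- gate with TMM (-0.99), in mesenchymal-like clusters (-0.88) or without cells bearing other-type markers (-0.91). Against 1 gene lower by 2-fold, 3 were (S100a4, S100a6 and Lgals3) with means over cells, with thinning to 5000 UMIs and in stellate-like clusters, where 4.83%, 4.94% and 5.30% of all genes were. S100a13 in that gate changed sign in Lrat-positive cells (-0.10), mesenchymal-like clusters (-0.22), cells with no other-type marker (-0.23) and stellate-like clusters (-0.24). Among Lrat-positive cells with 3 or more Col1a1 UMIs, also chosen after seeing the data, the log2 ratios of S100a4 (0.17), S100a10 (0.19), Lgals1 (0.18) and Lgals3 (0.016) were above 0, and S100a6 was at -0.48. The count of genes higher in Col1a1-high cells was 4 (4.22% of all genes), and 2 (1.43%) when 1 or more UMIs counted as high. For Timp1 it was 3 (9.75%), and 5 (10.04%) with Lrat at 2 or more UMIs. S100a6 in stellate-like cells of VitA+ DEN+WAD was at 20.8 CPM with a clustering resolution of 0.5, against 13.3, and its share of cells was 10.6% without thinning, against 3.72%. Its ratio for Timp1 was 14.02 with another seed, against 10.4. With 1 or more Col1a1 UMIs counted as high, the ratio was 18.1 for S100a6 and 2.25 for Lgals1, against 49.7 and 4.03. With 1 or more Timp1 UMIs it was 6.23 and 3.21, against 10.4 and 6.40. The other 32 main counts and levels under an alternative were judged unchanged, for counts by a limit of 1.5 times. For values of single genes, 151 were judged unchanged, 116 moved and 8 changed sign.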

Other observations

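S100g, a calcium-binding S100 gene of epithelia that is outside the naming rule and was chosen after its values were seen, had 888 UMIs in VitA- DEN+WAD (18.6 CPM), 1 in VitA- chow, 0 in each VitA+ library and 96 in the one labelled VitA-Col1a1-. In VitA- DEN+WAD most of it lay in 115 cells led by Spp1, Alb, Ttr and Apoa1, at 1158 CPM.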
